A study of Mus musculus with 4 samples.

Results

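NF-κB transcription factors, the IκB proteins that hold them in the cytoplasm and the enzymes that end their activation were followed in CD4+CD8+ double-positive (DP) thymocytes with and without Cre-mediated deletion of Usp8. The set held 10 genes, matched by name and chosen with earlier results of these data known. They were the subunits Nfkb1, Nfkb2, Rel, Rela and Relb, the inhibitors Nfkbia, Nfkbib and Nfkbie, and the ubiquitin enzymes Tnfaip3 and Cyld. These genes had 16 of the 41174 non-control probes on the array. Of the 10 genes, 9 could be tested, among 13062 genes tested in all.

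DP thymocytes were sorted from USP8ff_CD4Cre and USP8ff mice. USP8ff_CD4Cre mice carried loxP-flanked Usp8 alleles and Cre under Cd4 regulatory sequences, which are active from the DP stage onward, and USP8ff littermates carried the same loxP-flanked alleles without Cre. All mice were untreated, matched for sex and 6 to 12 weeks old. Each genotype was represented by 2 pools of 2 mice, 1 array per pool, 4 arrays in all. The series held no group with Cre and unfloxed Usp8, so that an effect of Cre and one of the deletion cannot be told apart. The p-values measure the spread between pools. With 2 pools against 2, an exact permutation test of a single gene cannot go below p = 0.333 (two-sided), and differences were therefore tested with limma across all genes. In bulk RNA, fewer cells of a type and less RNA per cell cannot be told apart.

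NF-κB dimers form from 5 related subunits that share a DNA-binding domain. In resting cells IκB proteins mask the nuclear localisation signal of these dimers, and an IκB kinase activated by antigen, cytokine or Toll-like receptors marks the IκB for ubiquitination and degradation by the proteasome. A second route, fed by members of the TNF receptor family, processes the precursor encoded by Nfkb2 and releases dimers that contain RelB. Several genes of the pathway are themselves NF-κB targets, which gives the response its negative feedback. In the thymus, NF-κB is known for its part in the survival and maturation of thymocytes after receptor signalling.

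κB motifs in the promoters were counted first. The κB consensus, searched by its usual 10-base motif on both strands from 250 bases upstream to 50 bases downstream of RefSeq gene starts (GRCm38.p6), was found for 6 of the 8 member genes with such a window, Nfkb2, Rel, Nfkbia, Nfkbie, Tnfaip3 and Cyld. It was found for 9.55% of the 27025 genes with a window. Rela and Nfkbib had no match in their windows. The table gives no window for Nfkb1 and Relb. The motif can overlap itself, as it does by all but 1 base in Nfkb2 and in Rel. A match is a match of letters in this window and does not show binding. The 250 bases upstream of the start are shown for 4 members, those of the IκBα gene Nfkbia (chr12:55492648-55492897, minus strand), of Nfkb2 (its first start, chr19:46304487-46304736, plus strand), of Tnfaip3 (its first start, chr10:19015411-19015660, minus strand) and of Cyld (chr8:88696778-88697027, plus strand), because they carry the shared feature. Capitals mark the κB matches, and overlapping matches run together.
Nfkbia: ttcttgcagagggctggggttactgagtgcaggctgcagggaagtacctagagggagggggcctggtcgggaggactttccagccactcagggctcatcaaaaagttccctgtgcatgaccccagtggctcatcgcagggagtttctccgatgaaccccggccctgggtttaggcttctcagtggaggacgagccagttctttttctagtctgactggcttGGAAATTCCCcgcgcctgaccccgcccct
Nfkb2: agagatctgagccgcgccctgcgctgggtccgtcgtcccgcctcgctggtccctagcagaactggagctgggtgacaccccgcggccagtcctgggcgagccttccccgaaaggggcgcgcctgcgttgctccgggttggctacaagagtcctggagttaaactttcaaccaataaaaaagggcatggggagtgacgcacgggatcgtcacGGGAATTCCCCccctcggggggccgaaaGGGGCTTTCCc
Tnfaip3: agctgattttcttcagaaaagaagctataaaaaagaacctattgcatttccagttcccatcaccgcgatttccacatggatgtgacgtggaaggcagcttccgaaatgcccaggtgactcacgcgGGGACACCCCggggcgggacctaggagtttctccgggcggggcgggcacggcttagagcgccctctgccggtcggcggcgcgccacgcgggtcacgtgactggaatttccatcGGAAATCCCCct
Cyld: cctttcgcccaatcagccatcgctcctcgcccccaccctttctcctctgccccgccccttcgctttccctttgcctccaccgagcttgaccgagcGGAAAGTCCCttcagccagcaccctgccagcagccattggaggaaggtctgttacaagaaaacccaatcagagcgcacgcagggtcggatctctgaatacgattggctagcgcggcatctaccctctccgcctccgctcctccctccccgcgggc

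Counted from the start of the gene, the matches began at -29 in Nfkbia, at -39, -38 and -11 in the Nfkb2 window shown, at -125 and -12 in Tnfaip3 and at -155 in Cyld. Of the 23 reported NF-κB target genes with a window, 34.8% held the motif. Carrying the motif did not go with 1 direction among the tested members. Of the 5 tested genes with a match, 3 had a positive and 2 a negative difference between the genotypes, as the values below show.

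The probes that read these genes are 60 bases long, and the coordinates given for them come from the array design on mm9. No mm9 gene models were used here, so that exon or intron is not stated. The sequences of 5 probes are shown because the reading of the subunits, of the inhibitors and of Cyld rests on such oligonucleotides. They are those of Nfkb2 (chr19:46386146-46386285, plus strand), the Rela probe printed at 10 places on the array (chr19:5647136-5647195, plus strand), Nfkbia (chr12:56590945-56591440, minus strand), Nfkbib (chr7:29544167-29544848, minus strand) and the Cyld probe nearest to the start of the gene (chr8:91229427-91229486, plus strand). The coordinates of the Nfkb2, Nfkbia and Nfkbib probes span 140, 496 and 682 bases, more than the 60 bases of the probe. No part of a probe is capitalised, as the whole of it is the target.
Nfkb2 probe: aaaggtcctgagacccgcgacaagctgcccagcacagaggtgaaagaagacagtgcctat
Rela probe: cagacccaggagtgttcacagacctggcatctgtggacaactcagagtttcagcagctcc
Nfkbia probe: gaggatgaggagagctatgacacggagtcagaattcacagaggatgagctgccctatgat
Nfkbib probe: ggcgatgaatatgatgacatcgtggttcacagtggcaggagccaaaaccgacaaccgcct
Cyld probe: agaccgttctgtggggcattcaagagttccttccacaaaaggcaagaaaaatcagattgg

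Signals are given on the log2 scale, with 0 at the array's own 75th percentile, and a difference is USP8ff_CD4Cre minus USP8ff. Usp8 had -1.03 and -1.23 in USP8ff_CD4Cre, against -0.23 and -0.40 in USP8ff, a difference of -0.81 ± 0.13 (SE, n = 2 pools per group, limma adjusted p = 0.60). Between 18522 and 20137 probes were well above background per array, and no spot was saturated. All 11 DP markers examined, among them Cd4, Cd8a, Cd8b1 and Rag1, were well above background on every array. Of their differences, 3 were positive and 8 negative, where 45.2% of all genes were negative, and 0 passed after adjustment. Rag2, with -0.33, was the only 1 of them lower at an unadjusted p under 0.05. Over all 13062 genes limma called 0 at an adjusted p under 0.05 (0% of the genes), and 970 at an unadjusted p under 0.05 (7.43%, of which 3.97% higher and 3.46% lower in USP8ff_CD4Cre). Both pools of one genotype lay beyond both pools of the other for 40.6% of all genes, 24.3% with USP8ff_CD4Cre higher and 16.3% with it lower. Of the 9 tested members, 0 passed after adjustment, 1 had an unadjusted p under 0.05 (higher) and 6 had groups that did not overlap, 4 higher and 2 lower in USP8ff_CD4Cre.

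The members were close to level between the genotypes. Their median difference was 0.10, beside 0.02 over all genes, and 7 of the 9 were positive and 2 negative, where 45.2% of all genes were negative. For each gene the brightest probe well above background was used, and by that probe 8 of the 9 members had differences from -0.13 to 0.21. The 95% limma intervals of all 9 lay between 0.744-fold and 1.71-fold of USP8ff. A 2-fold difference in either direction was outside these 9 intervals. Over all 15 probes of the members that were tested the intervals lay between 0.614-fold and 2.15-fold, and that of the Nfkb1 probe A_52_P569539 included a 2-fold higher signal.

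**Figure D1:**
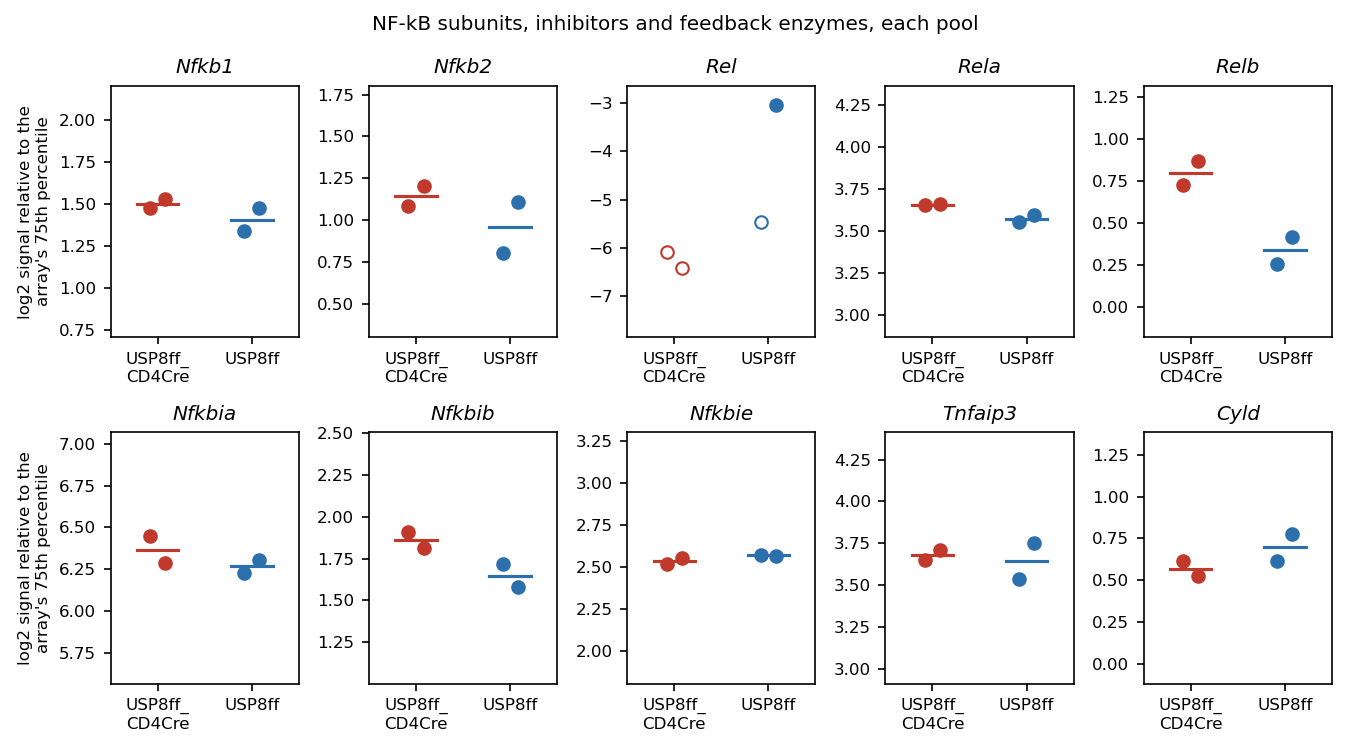
Log2 signal relative to the 75th percentile of the array (vertical axes, 1.5 units tall except for Rel) for each of the 10 genes in the 2 USP8ff_CD4Cre pools (left, red) and the 2 USP8ff pools (right, blue). Lines are group means and open points were not well above background. Pools of the 2 genotypes stand apart for 4 tested members with USP8ff_CD4Cre higher, Relb by the widest margin, and for 2 with it lower. They do so for 40.6% of all genes. Rel was seen in 1 USP8ff pool.

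Among the subunits, Relb had the largest difference of the tested members. RelB acts mainly in the second route, in dimers with the processed product of Nfkb2. Its probe (chr7:20191722-20191781, minus strand) read 0.73 and 0.87 in USP8ff_CD4Cre, against 0.26 and 0.42 in USP8ff. Both USP8ff_CD4Cre pools lay above both USP8ff pools. The means were 0.80 ± 0.10 in USP8ff_CD4Cre and 0.34 ± 0.11 in USP8ff (SD, n = 2 each), a difference of 0.46 ± 0.12 (SE), or 1.38-fold. In limma the unadjusted p was 0.0125, the rank of the gene by p was 222 of 13062, and the adjusted p was 0.66. The difference stayed between 0.38 and 0.54 in every alternative processing run, and its adjusted p between 0.41 and 0.9997. Its unadjusted p was 0.0763 when USP8ff_CD4Cre replicate 2 was left out, and was 0.0543 without the other genotype's replicate 1 and also with no filter on dim probes.

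Nfkb2, whose precursor protein both inhibits RelB and gives rise to its partner, read 1.08 and 1.21 in USP8ff_CD4Cre, against 0.81 and 1.11 in USP8ff. The ranges overlapped, since USP8ff replicate 2 lay above USP8ff_CD4Cre replicate 1. The difference was 0.19 ± 0.14 (SE), with a 95% interval of -0.18 to 0.56 (limma adjusted p = 0.77). It was 0.033 when USP8ff replicate 1 was left out and 0.34 when USP8ff replicate 2 was.

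Rela encodes the transactivating subunit p65 of the classical dimer. Its brighter probe (chr19:5647632-5647691, plus strand) read 3.66 in both USP8ff_CD4Cre pools, against 3.55 and 3.59 in USP8ff. The groups did not overlap, yet the difference was only 0.08 ± 0.10 (SE; limma adjusted p = 0.86). The other Rela probe, printed at 10 places on each array, read -0.02 and 0.06 in USP8ff_CD4Cre, against -0.08 and -0.03 in USP8ff, a difference of 0.08 ± 0.11 (SE). Both Rela probes gave a difference of 0.08.

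Nfkb1, which encodes the precursor of the partner of p65, was read by 4 probes. The brightest, also printed at 10 places (chr3:135247710-135247771, minus strand), read 1.48 and 1.53 in USP8ff_CD4Cre, against 1.34 and 1.48 in USP8ff, with a difference of 0.10 ± 0.11 (SE; limma adjusted p = 0.85). USP8ff_CD4Cre replicate 1 and USP8ff replicate 2 were almost equal. Between the 10 spots of that probe the SD was 0.044 and 0.052 in the USP8ff_CD4Cre arrays and 0.044 and 0.040 in the USP8ff arrays. The 2 USP8ff pools differed by more than that, with group SDs of 0.04 in USP8ff_CD4Cre and 0.10 in USP8ff.

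The other 3 Nfkb1 probes did not agree on a direction beyond their errors. A_52_P32733 (chr3:135281195-135281254, minus strand) had a difference of -0.36 ± 0.14 (SE), with -3.16 and -3.05 in USP8ff_CD4Cre, against -2.87 and -2.62 in USP8ff. Its unadjusted p in limma was 0.0439 and its adjusted p over all probes 0.74, and the unadjusted p was 0.170 without USP8ff_CD4Cre replicate 1, 0.0822 without its replicate 2 and 0.177 without USP8ff replicate 2. With normexp background correction the difference was -0.17. A_52_P569539 had 0.31 ± 0.32 and A_52_P582969 0.01 ± 0.18 (SE). For both, USP8ff_CD4Cre replicate 1 was the highest and USP8ff_CD4Cre replicate 2 the lowest of the 4 arrays. The array design assigns each of these 3 probes to a different transcript record.

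Rel, the gene of c-Rel, a subunit known for its role in activated lymphocytes and regulatory T cells, could not be compared. Its single probe was not well above background in either USP8ff_CD4Cre pool (-6.08 and -6.41) or in USP8ff replicate 1 (-5.47), and was well above it in USP8ff replicate 2 (-3.03). With no filter on dim probes its fitted difference was -1.99 (limma unadjusted p = 0.0498, adjusted p = 0.75), which rests on that 1 pool. The scanner files place 15 of its bases on mm9 (chr11:23641729-23641743, minus strand), and how much of the Rel transcript the probe reads is not given. No marker of another cell type passed after adjustment, but several had low unadjusted p-values, where 3.46% of all genes were lower at an unadjusted p under 0.05. Of the 12 macrophage and dendritic cell markers 4 were tested, all with negative differences and 2 of them at an unadjusted p under 0.05. These 2 were Ctss, with -1.96, and Mpeg1, with -1.09. Lyz2 and Cd68 had -0.19 and -0.12, and their groups overlapped. The summed linear signal of the 4, as a multiple of the 75th percentile, was 1.19 to 1.49 in USP8ff_CD4Cre and 2.11 to 2.40 in USP8ff. That gap rests mostly on Ctss. Csf1r, Itgam, Itgax, Adgre1 and Cd14, among others, were not well above background in both pools of either genotype. Of the 13 mature single-positive and regulatory T cell markers 9 were tested, and 7 were lower at an unadjusted p under 0.05. Among these 7, Il7r and Itgae were not well above background in either USP8ff_CD4Cre pool and were kept through USP8ff alone. With the lowest signal well above background on each array as a floor, they were at least 5.01-fold and 4.02-fold lower in USP8ff_CD4Cre. These are bounds and not measured differences. Gpr83, also among the 7, was well above background in 1 USP8ff_CD4Cre pool. The sums of these 9 overlapped, with 157 to 161 in USP8ff_CD4Cre and 158 to 174 in USP8ff, but they rest mostly on Cd52 and on Klf2, which had a positive difference of 0.23, and say little of the other markers. Of the 10 NK and innate T cell markers 5 were tested, and 3 were lower at an unadjusted p under 0.05, Nkg7 with -2.09, Il2rb with -2.02 and Prf1 with -0.86. Il2rb was well above background in only 1 of the 2 USP8ff_CD4Cre pools, so that its value rests partly on a background reading. The other 2, Gzma and Tbx21, had 0.42 and 0.15, and the sums of the 5 were 3.94 to 5.29 in USP8ff_CD4Cre and 4.28 to 4.37 in USP8ff. The NK cell genes Ncr1 and Klrb1c were not well above background in both pools of either genotype. The regulatory T cell genes Foxp3, Ctla4 and Il2ra were not well above background in both pools of either genotype. Of the 7 B cell markers 2 were tested, Blnk with -0.75 and Cd79b with -0.08, and their groups overlapped. Of the 7 thymic stroma markers 2 were tested, Epcam with -0.47 (limma unadjusted p = 0.0152) and Krt5 with 0.22. The part of all such cells in the Rel signal was not tested.

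None of the 3 inhibitors passed the test, with differences from -0.03 to 0.21. Nfkbia encodes IκBα, the inhibitor that NF-κB resynthesises fastest, and read 6.45 and 6.28 in USP8ff_CD4Cre, against 6.23 and 6.31 in USP8ff. These ranges overlapped, with a difference of 0.10 ± 0.12 (SE) and a 95% interval of -0.20 to 0.40 (limma adjusted p = 0.85). With quantile normalization its sign turned (-0.01).

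Nfkbib, the gene of IκBβ, an inhibitor with slower turnover, read 1.91 and 1.81 in USP8ff_CD4Cre, against 1.72 and 1.58 in USP8ff. Both USP8ff_CD4Cre pools lay above both USP8ff pools. The difference was 0.21 ± 0.11 (SE), or 1.16-fold, with an interval of -0.08 to 0.50 (limma adjusted p = 0.70). Nfkbie, the gene of IκBε, a further inhibitor induced by NF-κB, read 2.52 and 2.55 in USP8ff_CD4Cre, against 2.57 and 2.56 in USP8ff. The groups did not overlap, but the difference of -0.03 ± 0.10 (SE) was the smallest of the tested members in size.

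Of the 2 feedback enzymes, Tnfaip3 had a difference near 0 and Cyld had negative differences on all 3 of its probes. Tnfaip3 encodes A20, which edits ubiquitin chains on signalling intermediates and restrains the IκB kinase. It read 3.65 and 3.71 in USP8ff_CD4Cre, against 3.53 and 3.75 in USP8ff. The USP8ff pools enclosed both USP8ff_CD4Cre pools, and the difference was 0.04 ± 0.12 (SE; limma adjusted p = 0.95), turning to -0.07 without USP8ff replicate 1.

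Cyld encodes a deubiquitinase that removes the ubiquitin chains needed for IκB kinase activation. Its brightest probe (chr8:91271594-91271653, plus strand) read 0.613 and 0.53 in USP8ff_CD4Cre, against 0.614 and 0.78 in USP8ff. The groups did not overlap by a margin under 0.01, and the difference was -0.13 ± 0.12 (SE; limma adjusted p = 0.81). The probe nearest to the far end of the gene (chr8:91275637-91275696) read -0.21 and -0.22 in USP8ff_CD4Cre, against 0.05 and 0.28 in USP8ff. Both USP8ff_CD4Cre pools lay below both USP8ff pools there, with a difference of -0.38 ± 0.13 (SE), which left 76.8% of the USP8ff signal. In limma over all probes its unadjusted p was 0.0286 and its adjusted p 0.73, and the unadjusted p was 0.117 without USP8ff replicate 2 and 0.0919 or 0.0986 without either USP8ff_CD4Cre pool. The third probe, nearest to the start, read -2.85 and -2.74 in USP8ff_CD4Cre, against -2.58 and -2.68 in USP8ff, a difference of -0.17 ± 0.12 (SE). With normexp background correction the difference of that dim probe was 0.0033.

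**Figure D2:**
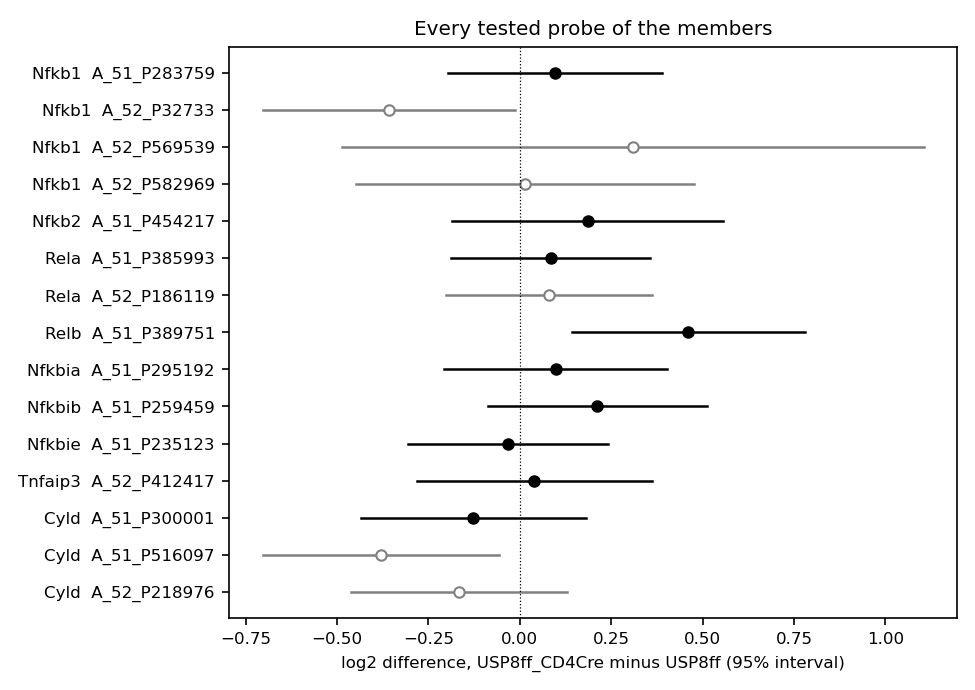
Log2 difference, USP8ff_CD4Cre minus USP8ff (horizontal axis), of each of the 15 tested probes of the members, with 95% limma intervals. Filled points are the brightest probe of each gene and open points its other probes. All 3 Cyld probes lie below 0, the 4 Nfkb1 probes lie on both sides of it, and the interval of Relb lies above it.

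Over all 15 tested probes of the members 10 differences were positive and 5 negative. Of these 15, 3 had an unadjusted p under 0.05 in limma, those of Relb, Cyld A_51_P516097 and Nfkb1 A_52_P32733, 1 higher and 2 lower, where 6.67% of the 19038 probes tested did (3.37% higher and 3.3% lower), and 0 passed after adjustment. The groups did not overlap for 10 of the 15, 5 in each direction, against 38.7% of all probes (22.1% higher and 16.6% lower). Negative differences made up 46.9% of all probes. The 3 Cyld probes read 1 gene and the same 4 RNA pools, so that they are not independent of each other.

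**Figure D3:**
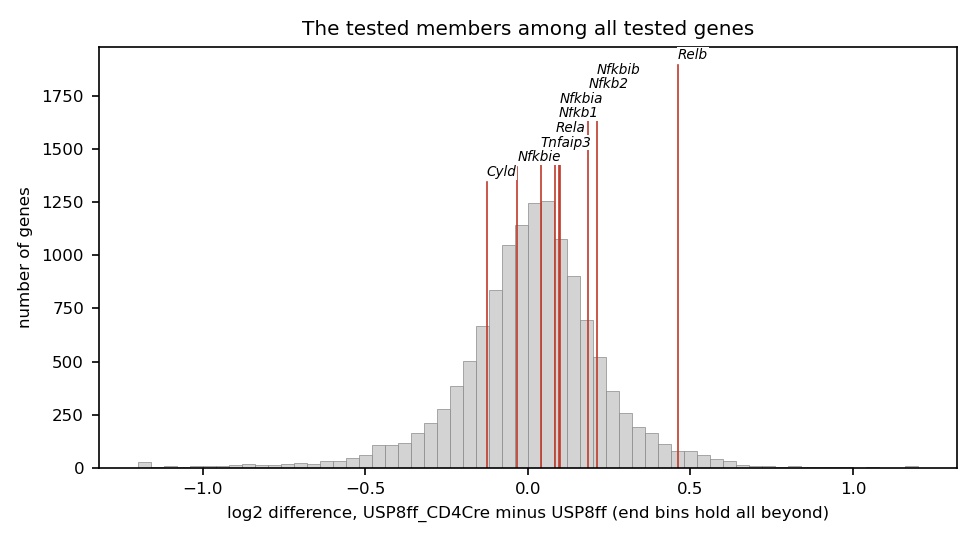
Number of genes (vertical axis) by log2 difference, USP8ff_CD4Cre minus USP8ff (horizontal axis), for the 13062 genes tested, with the 9 tested members as red lines. Relb, at 0.46, lies outside the range from -0.37 to 0.36 that holds the middle 90% of the genes, and the other 8 lie within it.

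The middle 90% of the differences of all genes ran from -0.37 to 0.36. Relb lay outside that range and the other 8 tested members within it. Among the genes whose pattern over the 4 arrays was nearest to that of Relb, by Euclidean distance of mean-centred log2 values among genes well above background on every array, were Rps4l (distance 0.035) and Hs6st3 (0.077). Rps4l had a difference of 0.44 ± 0.12 and Hs6st3, a heparan sulfate sulfotransferase gene, had 0.48 ± 0.11 (SE, limma adjusted p = 0.66 for each). Likeness over 4 arrays is a description.

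Genes of the IκB kinase itself and of kinases and adaptors around it were measured in full, 26 of 26 listed. Their median difference was -0.03, with 11 positive and 15 negative (57.7% negative, beside 45.2% of all genes), and 0 passed after adjustment. At an unadjusted p under 0.05, 1 was lower and 0 were higher, where 3.46% of all genes were lower and 3.97% higher. That gene was Ikbkg, which encodes NEMO, the regulatory subunit of the IκB kinase. Its brightest probe read -0.53 and -0.58 in USP8ff_CD4Cre, against -0.18 and -0.09 in USP8ff, a difference of -0.42 ± 0.11 (SE; limma adjusted p = 0.66). Its unadjusted p was 0.0102, and 0.0624 without USP8ff_CD4Cre replicate 2. Its other probes had -0.27 ± 0.16 and -0.09 ± 0.11, and with the mean of its probes the difference was -0.26 (limma unadjusted p = 0.0600). With no filter on dim probes the unadjusted limma p of its brightest probe was 0.0603. Ikbke, a kinase related to the IκB kinases, had -0.28 ± 0.12 (SE; limma adjusted p = 0.67). The catalytic subunits Chuk and Ikbkb had -0.17 and -0.07, and Bcl10 and Malt1, which link the antigen receptor to the IκB kinase, had 0.07 and 0.02.

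Other inhibitors and modulators had 17 of 19 listed genes tested, 9 positive and 8 negative, with a median of 0.01. Again 0 passed after adjustment and, where 3.46% of all genes were lower at an unadjusted p under 0.05, 1 was. This was Bcl3, an IκB-family protein that works in the nucleus as a cofactor of NF-κB dimers formed by the processed products of Nfkb1 and Nfkb2. Bcl3 read -2.94 and -2.95 in USP8ff_CD4Cre, against -2.17 and -1.90 in USP8ff. Both USP8ff_CD4Cre pools were lower than both USP8ff pools, the difference was -0.92 ± 0.13 (SE), and 52.9% of the USP8ff signal was left (limma adjusted p = 0.51). With normexp background correction the difference was -0.55. N4bp1, an inhibitor of NF-κB signalling, had 0.26 ± 0.11 (SE; limma adjusted p = 0.69). The related nuclear IκB genes Nfkbid and Nfkbiz had -0.01 and -0.07. Most of the macrophage and mature T cell markers and 3 of the 5 NK cell markers given beside Rel also had negative differences, and their part in the Bcl3 signal was not tested.

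Receptors and ligands were measured for 9 of 20 listed genes, 2 positive and 7 negative, with a median of -0.15 and 0 past the adjusted threshold. Negative differences made up 77.8% of them, beside 45.2% of all genes. At an unadjusted p under 0.05, 1 of the 9 was lower, where 3.46% of all genes were. Tnfrsf18, the gene of the receptor GITR, which is high in regulatory T cells, read 3.57 and 3.67 in USP8ff_CD4Cre, against 3.89 and 4.13 in USP8ff, a difference of -0.39 ± 0.13 (SE; limma adjusted p = 0.66). Its unadjusted p was 0.0284, and 0.125 and 0.0651 when USP8ff_CD4Cre replicate 1 or 2 was left out and 0.112 when USP8ff replicate 2 was. Tnfrsf4, the gene of OX40, a costimulatory receptor, had -0.20 ± 0.13 (SE; limma adjusted p = 0.73). The cytokine genes Tnf and Lta had 0.06 and 0.07, and Ltb, which encodes lymphotoxin beta, had -0.16. Receptors of the second route, Cd40, Ltbr, Tnfrsf11a and Tnfrsf13c, were not well above background in both pools of either genotype.

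Reported NF-κB target genes had 21 of 30 listed genes tested, with a median of 0.04, 12 positive and 9 negative, and 0 past the adjusted threshold. Negative differences made up 42.9% of them, beside 45.2% of all genes. Where 3.46% of all genes were lower at an unadjusted p under 0.05, 1 of the 21 was. This was Ccr7, a chemokine receptor gene of maturing thymocytes that is also on the list of mature T cell markers. Its difference was -1.24 ± 0.23 (SE; limma adjusted p = 0.66). Cd44, an adhesion receptor gene, had -0.76 ± 0.31 (SE; limma adjusted p = 0.67), with -0.30 when USP8ff replicate 1 was left out and -1.23 when USP8ff replicate 2 was. Without either being called, Traf1 had -0.45 and Pim1 0.26. The authors' deposited table of 78 probes held 0 of the 16 probes of the members. With only 78 probes listed, beside 41174 non-control probes on the array, this count says little about the members.

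**Figure D4:**
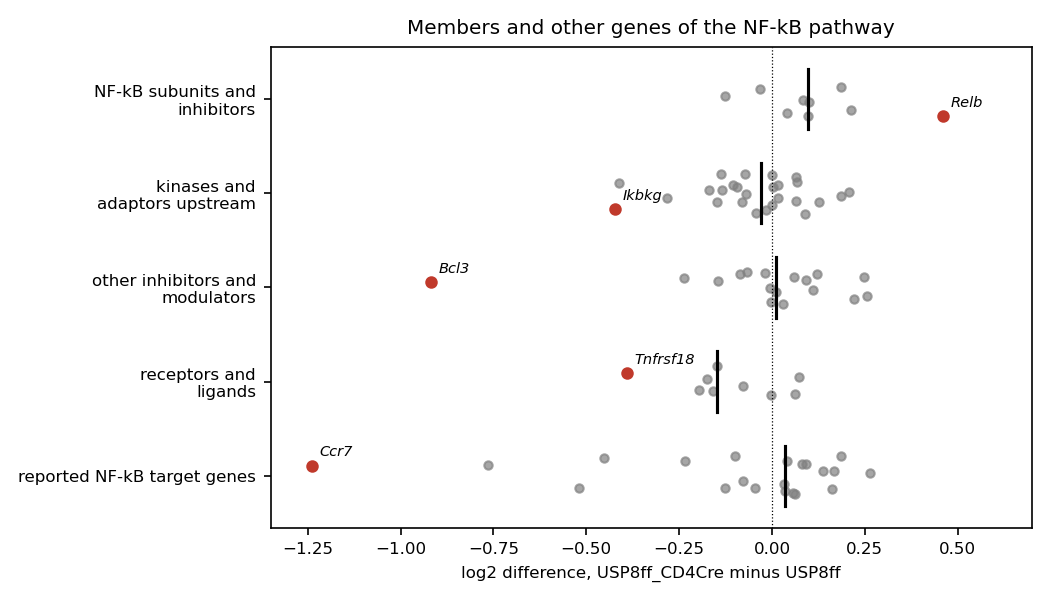
Log2 difference, USP8ff_CD4Cre minus USP8ff (horizontal axis), of each tested gene in the members and in 4 lists of other NF-κB pathway genes. Points in red have an unadjusted limma p under 0.05, bars are list medians, and vertical scatter within a list is only for display. Relb lies above 0, and Bcl3, Ikbkg, Tnfrsf18 and Ccr7 lie below it.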

How the data were processed

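RNA of sorted DP thymocytes was labelled with Cy3 from 500 ng, per the labels, and hybridised to 1-colour Agilent arrays on 1 slide. The deposited scanner files hold spot intensity values that had been background-subtracted and detrended, per the file headers, with Feature Extraction 10.7.3.1 and no scaling across arrays. A further deposited table by the authors gives an absolute fold and a p-value per probe, without its methods. A table with 4 columns of values whose names match no label was not used.

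On each array, log2 processed signals were centred on the 75th percentile over 43379 non-control spots. Outlier spots were left out and spots of a probe averaged. A probe was kept where both arrays of either genotype showed it well above background (19038 probes), and the brightest probe stood for its gene. Names came from RefSeq by accession for 26690 probes. The genotypes were tested in limma 3.58.1 (R 4.3.3), with Benjamini-Hochberg adjustment over all genes (or all probes) and a threshold of 0.05. The script was tested on simulated data. The members and lists were chosen with earlier results of these data known. Genes named beyond the members were Usp8, up to 2 per list with the smallest p, and the 3 nearest in pattern to the member with the smallest p. Other list genes were named after their values were seen. Some genes that the rule names are not reported here. Alternatives tried were scaling by quantiles or medians, normexp background correction, other filters, the mean of probes, a replicate block, a variance trend, outlier spots kept and each array left out. Figures were drawn with matplotlib 3.10.9.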

Additional observations from a re-analysis of the deposited data

How the results depend on the processing

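With 2 pools per genotype, the number of arrays limits the precision, and dim probes, such as those of Rel and Bcl3, Cyld A_52_P218976 and Nfkb1 A_52_P32733, lie nearer to background. Under every alternative run, 0 members, 0 member probes and 0 of all genes passed the adjusted threshold. Before adjustment, limma gave p under 0.05 for 970 genes, for 1338 with the replicate block and 397 without USP8ff_CD4Cre replicate 2. The median difference of the members, 0.10, ran from 0.033 without USP8ff replicate 1 to 0.14 without USP8ff replicate 2. Rel, not tested otherwise, had -1.99 with no filter on dim probes (unadjusted p = 0.0498, adjusted p = 0.75). With that setting the median over all genes was -0.13. With median scaling, 41.0% of the genes with an unadjusted p under 0.05 were higher in USP8ff_CD4Cre, against 53.4% before, with 61.1% under a variance trend and 44.9% with no filter.

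Among the members, these differences turned in sign: Nfkbia (-0.013) with quantile normalization, Tnfaip3 (-0.069 to 0.15 over the arrays left out in turn, lowest without USP8ff replicate 1), the Cyld probe A_52_P218976 (0.0033) and the Nfkb1 probe A_52_P582969 (-0.0079) with normexp background, and without USP8ff_CD4Cre replicate 1 the Nfkb1 probes A_52_P569539 (-0.18, with 0.80 at the other end of the range) and A_52_P582969 (-0.23, with 0.26). A_52_P582969 also had -0.02 without USP8ff replicate 1. The cause was not tested. With the replicate block, the median difference of the members remained 0.10 and the smallest adjusted p among them was 0.41. Pools with the same number deviated together (correlation 0.32 across genes). With 2 pools per genotype both correlations are equal by construction, so that this is 1 value. Pairing the pools the other way would give the same size with a negative sign. The value therefore cannot decide whether the numbers pair the pools, which is not known.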
